A study of Danio rerio with 4 samples.

Results

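The complement genes of the injured zebrafish ventricle were examined as 1 group of 19 genes, taken from the 17221 genes of the deposited table by their symbols. The rule took symbols beginning with c3a., c3b., cfh, masp or c8, and a set of 20 further symbols such as *c1qa*, *c4* and *cfp*. Of those 20 symbols, 9 gave no row (*c1r*, *c2*, *c3ar1*, *c4b*, *c5*, *c5ar1*, *c9*, *cfb* and *cfi*), nor did any symbol beginning with c3b. or c8, and these genes were not analysed here. The deposited protein names of 16 of the 19 genes hold the words complement or C1q. Of the others, *masp1* is named a mannan-binding lectin peptidase, *cd59* the CD59 molecule, and *c7b* has no descriptive name. The symbol *c6* stood on 2 rows, which the reference names table calls *c6.1* and *c6.2*, and these names are used below.

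Messenger RNA was sequenced from pools of 3 ventricles of adult zebrafish of the AB strain, 24 h after cryoinjury, a local freezing of the ventricle wall that kills heart muscle and is followed by regeneration. The tested fish carried Tg(hsp70l:sflt4), in which the heat-inducible *hsp70l* promoter drives sflt4, a secreted decoy of Flt4, the receptor for Vegfc. The other fish were WT without the transgene. Fish of both groups were cryoinjured and heat-shocked at 39 °C, and each group had 2 libraries. The promoter is not specific to a cell type, and the labels give neither the sex of the fish nor the number of transgene copies.

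Complement is a cascade of mostly secreted proteins that marks microbes, dead cells and debris. The classical pathway starts with C1q, the lectin pathway with sugar-binding lectins and their proteases, and the alternative pathway with spontaneous turnover of C3. All converge on the cleavage of C3, after which the terminal components C5 to C9 can form a pore in a membrane, while regulators such as factor H shut the cascade down on host surfaces. Liver is the main source of many of these proteins in mammals, but macrophages, fibroblasts and endothelial cells also transcribe some of the genes, C1q in macrophages among them.

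The deposited values are read counts normalized between libraries and not divided by transcript length, so levels are compared between libraries and not between genes. The library totals were 30171847 and 32774116 in Tg(hsp70l:sflt4), against 34096403 and 33799004 in WT, and the complement genes together took 0.119% and 0.109%, against 0.130% and 0.103%. *flt4* itself read 504 and 538 in Tg(hsp70l:sflt4) and 618 and 515 in WT, and since no source used here gives the transgene sequence, these reads need not report it. Heart muscle markers were abundant in every library, with summed values of 1256748 and 1333718 in Tg(hsp70l:sflt4) and 1806105 and 1576089 in WT. WT replicate 1 stood high for epicardial and fibroblast markers, and also for heart muscle, red cell and liver markers. WT replicate 2 stood high for interleukin 6 and NF-kB genes and *hsp70l* (1191 and 647 in Tg(hsp70l:sflt4), 461 and 4264 in WT), and Tg(hsp70l:sflt4) replicate 1 for interferon genes. Where nothing says how the pools were formed, p-values measure the spread between these libraries.

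Complement genes differed in both directions in Tg(hsp70l:sflt4) ventricles. The factor H genes, the alternative pathway genes *cfd* and *cfp*, the C1q genes and *c3a.4* had higher values in both Tg(hsp70l:sflt4) libraries than in both WT libraries. *c3a.1*, *c4*, *c7b* and both *c6* genes had lower ones, *c7b* by a narrow margin (242 and 159 against 257 and 2922). None of the 18 genes tested passed an adjusted p of 0.05 (limma, Benjamini-Hochberg over 17071 genes, of which 0 or 0% passed). The unadjusted p was under 0.05 for 10 of the 18 genes, 7 higher and 3 lower, where that share was 11.0% over all genes tested (5.57% higher and 5.45% lower). The groups did not overlap for 14 of 18 genes, 9 higher and 5 lower, against 43.2% of all genes tested (21.8% higher and 21.4% lower). The 18 genes include related neighbours in clusters, so they are not separate observations. They were also chosen with earlier results of these data known, so these comparisons are descriptions. The mean log2 value was higher in Tg(hsp70l:sflt4) for 9 of 18 genes, against 48.7% of all genes tested. In all later counts of genes by direction, the mean is likewise that of the log2 values. The median log2 difference of the 18 genes was 0.12 and that of all genes tested -0.01, and the median size of the difference without its sign was 0.96 against 0.24. Spread between replicates also raises this size. Some large differences, such as those of *c7b* (-2.14, SE 1.06) and *masp1* (-1.79, SE 1.28), rested mostly on 1 library. Leaving out 1 library leaves a lone sample in its group, so only log2 differences are given below for those fits. With libraries scaled to equal totals, which moved the median of all genes by 0.11, the genes at an unadjusted p under 0.05 were 9 higher and 2 lower among complement genes, and 1584 higher and 549 lower over all genes against 951 and 930 as deposited. In ventricle RNA, fewer cells of a type and less RNA per cell cannot be told apart.

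**Figure D1:**
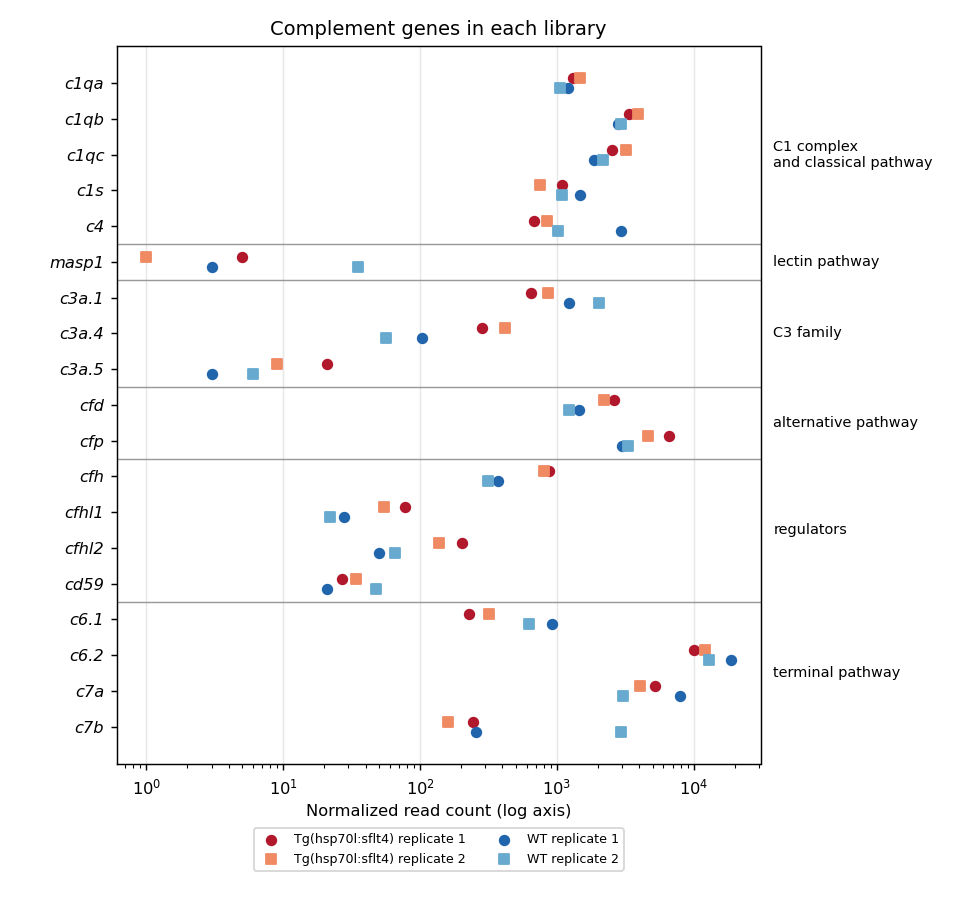
Normalized read counts (log axis) of the 19 complement genes in each library, grouped by role, with Tg(hsp70l:sflt4) libraries above WT libraries in each row. The 2 WT libraries lie far apart for *c4*, *c7a*, *c7b* and *masp1*, and close together for *cfh*, *cfd* and *cfp*, where both Tg(hsp70l:sflt4) libraries lie to the right.

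The recognition subunit C1q, which binds antibody complexes and dying cells, is built from A, B and C chains encoded by *c1qa*, *c1qb* and *c1qc*. *c1qc* read 2505 and 3207 in Tg(hsp70l:sflt4), against 1879 and 2177 in WT. *c1qb* read 3367 and 3901 against 2780 and 2952, and *c1qa* 1312 and 1486 against 1207 and 1049. For each chain both Tg(hsp70l:sflt4) libraries were above both WT libraries, by a modest margin of 1.24-fold for *c1qa*, 1.27-fold for *c1qb* and 1.41-fold for *c1qc*. Their log2 differences were 0.31 (SE 0.15, adjusted p = 0.510), 0.34 (SE 0.15, adjusted p = 0.469) and 0.49 (SE 0.18, adjusted p = 0.425). Of the reads of the trio, *c1qb* took 46.9% and 45.4% in Tg(hsp70l:sflt4) and 47.4% and 47.8% in WT. *c1qa* took 17.8% ± 0.69 in Tg(hsp70l:sflt4) and 18.8% ± 2.5 in WT (SD, n = 2 each), and *c1qc* 34.9% and 37.3% against 32.0% and 35.2%. The groups overlapped for the shares of *c1qa* and *c1qc* and not for that of *c1qb*.

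Macrophage markers were mixed, with more of them on the side of the C1q genes. Of 20 markers, 15 had the higher mean log2 value in Tg(hsp70l:sflt4), 6 of them at an unadjusted p under 0.05. At that level 1 was lower (*ms4a17a.10*), and the median log2 difference of the list was 0.25. Among the 15, *mpeg1.2* and *csf1rb* had lower mean reads in Tg(hsp70l:sflt4) (0.82-fold and 0.50-fold). The summed marker values were 95968 and 128853 in Tg(hsp70l:sflt4) and 70006 and 79952 in WT, without overlap, and the groups did not overlap for 8 markers that were higher and 4 that were lower (*csf1ra*, *cd74a*, *cd74b* and *ms4a17a.10*). Over all genes tested, 21.8% were higher and 21.4% lower without overlap. At an unadjusted p under 0.05, 5.57% were higher and 5.45% lower. The markers with the largest means were *grn1*, *ctss2.1* and *marco*, with log2 differences of 1.30, 0.17 and 0.82. The difference was 0.78 for *mfap4* and 0.65 for *irf8*. By contrast, *mpeg1.1* read 4320 and 5642 in Tg(hsp70l:sflt4) and 5184 and 4611 in WT (log2 difference 0.01). *csf1ra*, for a macrophage growth factor receptor, read 1165 and 829 against 2129 and 1179 (log2 difference -0.69). Set against the summed marker values, the C1q trio amounted to 7.49% and 6.67% in Tg(hsp70l:sflt4) and 8.38% and 7.73% in WT. That sum is weighted to abundant markers such as *grn1* (2.38-fold higher). The log2 differences of all C1q chains were below those of *grn1*, *marco*, *mfap4* and *irf8*. They were above the median of the list and those of *ctss2.1*, *mpeg1.1* and *csf1ra*. The part of macrophage number in the C1q values was not tested.

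The other classical pathway genes lay on the lower side. *c1s*, for the protease of the C1 complex that cleaves C4, read 1089 and 750 in Tg(hsp70l:sflt4) and 1467 and 1081 in WT, so the groups touched (log2 difference -0.48, SE 0.24, adjusted p = 0.529). *c4*, for the component that is cleaved to form the classical convertase, read 683 and 843 in Tg(hsp70l:sflt4) and 2932 and 1021 in WT. The means were 763.0 ± 113 and 1976.5 ± 1351 (SD, n = 2 each), a log2 difference of -1.19 (SE 0.48, adjusted p = 0.451). Both Tg(hsp70l:sflt4) libraries were below both WT libraries, but WT replicate 1 carried much of the gap. Without WT replicate 1 the log2 difference was -0.43, and without WT replicate 2 it was -1.95. Epicardial and fibroblast markers were also uneven in WT, with summed values of 217092 and 214064 in Tg(hsp70l:sflt4) and 256271 and 143195 in WT. Over that sum, *c4* stood at 0.315% and 0.394% in Tg(hsp70l:sflt4), against 1.14% and 0.713% in WT, without overlap. That sum is weighted to abundant genes such as *fn1a* (1.81-fold in Tg(hsp70l:sflt4) over WT) and *fn1b* (0.37-fold). The part of epicardial and fibroblast cell number in the *c4* values was not tested. *c4* lies on chromosome 15 and overlaps *trim3a* on the other strand by 1943 bases.

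The lectin pathway was represented by 1 gene near the lower limit of the table. *masp1*, for a protease that binds mannose-binding lectin and collectins, read 5 and 1 in Tg(hsp70l:sflt4) and 3 and 35 in WT. The log2 difference, -1.79 (SE 1.28, adjusted p = 0.639), rested mostly on WT replicate 2 and was -0.21 without it, and at these levels no difference was detectable.

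The C3 genes differed in direction. Zebrafish carry several *c3* genes, and *c3a.1*, *c3a.4* and *c3a.5* lie within 179.8 kb on chromosome 1 (55997173 to 56176976, danRer11), all on the minus strand. *c3a.4* read 283 and 416 in Tg(hsp70l:sflt4), against 104 and 56 in WT. That is 349.5 ± 94.0 against 80.0 ± 33.9 (SD, n = 2 each), 4.37-fold higher, with a log2 difference of 2.15 (SE 0.38, adjusted p = 0.272). *c3a.1* read 644 and 859 in Tg(hsp70l:sflt4), against 1215 and 2021 in WT. Its means were 751.5 ± 152 and 1618 ± 569.9 (SD, n = 2 each), a log2 difference of -1.07 (SE 0.28, adjusted p = 0.328). Neither pair of groups overlapped. *c3a.5* read 21 and 9 in Tg(hsp70l:sflt4) and 3 and 6 in WT, and its mean over the libraries, 9.75, was below the limit of 10 for the test.

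The opposite differences of *c3a.1* and *c3a.4* can also be put as a share within each library, which needs no normalization between libraries. The share restates the differences given above. *c3a.4* made up 29.9% and 32.4% of the reads of the *c3a* genes in Tg(hsp70l:sflt4), against 7.87% and 2.69% in WT. The group means were 31.1% ± 1.80 and 5.28% ± 3.66 (SD, n = 2 each), a gap much wider than the spread of either group. With 2 libraries in each group, the smallest two-sided p of an exact permutation test is 0.333, so this share is given as a description. The summed reads of the *c3a* genes were 948 and 1284 in Tg(hsp70l:sflt4) and 1322 and 2083 in WT, lower in total in Tg(hsp70l:sflt4) in spite of the higher *c3a.4*. Without WT replicate 1 the log2 differences were 2.59 for *c3a.4* and -1.44 for *c3a.1*, and without WT replicate 2 they were 1.71 and -0.71. Reads of close copies can be split among them, and no source used here says how such reads were counted, so the values of the *c3a*, *cfh* and *c6* families are uncertain.

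**Figure D2:**
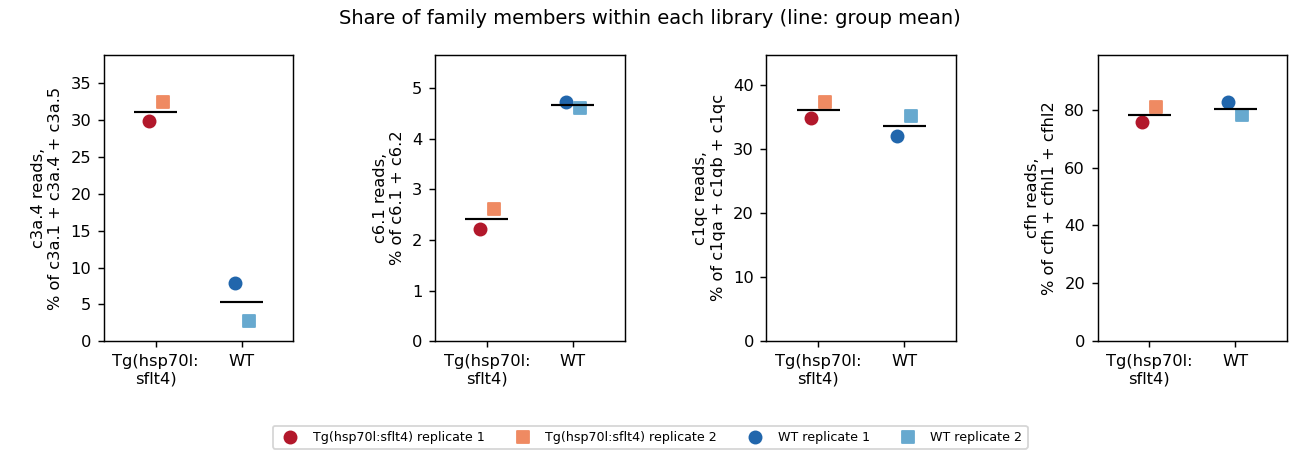
Reads of 1 family member as a percentage of its family within each library, for Tg(hsp70l:sflt4) and WT, with lines at group means. The share of *c3a.4* was 29.9% and 32.4% against 7.87% and 2.69%, and that of *c6.1* 2.22% and 2.61% against 4.71% and 4.59%, while the shares of *c1qc* and *cfh* overlapped between groups.

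Both alternative pathway genes had higher values in Tg(hsp70l:sflt4). *cfd*, for factor D or adipsin, the protease that cleaves factor B to build the alternative convertase, read 2600 and 2202 in Tg(hsp70l:sflt4) and 1444 and 1220 in WT. The means were 2401 ± 281 and 1332 ± 158 (SD, n = 2 each), 1.80-fold apart, with a log2 difference of 0.85 (SE 0.16, adjusted p = 0.276). *cfp*, for properdin, which stabilizes that convertase and is made by myeloid cells in mammals, read 6545 and 4643 in Tg(hsp70l:sflt4) and 2963 and 3328 in WT. Its means were 5594 ± 1345 and 3145.5 ± 258 (SD, n = 2 each), 1.78-fold apart, with a log2 difference of 0.81 (SE 0.20, adjusted p = 0.313). For *cfd* the libraries of a group lay closer to each other than to the other group, while for *cfp* Tg(hsp70l:sflt4) replicate 2 lay nearer to WT than to its own replicate.

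The myeloid markers were uneven beside them. Of 13 neutrophil markers 9 had the higher mean log2 value in Tg(hsp70l:sflt4). At an unadjusted p under 0.05, 2 were higher and 1 was lower, and the median log2 difference was 0.15. Their summed values, 37060 and 45860 in Tg(hsp70l:sflt4) against 32054 and 41338 in WT, overlapped. *cfp* amounted to 17.7% and 10.1% of this sum in Tg(hsp70l:sflt4), against 9.24% and 8.05% in WT. Against the macrophage sum it was 6.82% and 3.60% in Tg(hsp70l:sflt4) and 4.23% and 4.16% in WT, and *cfd* was 2.71% and 1.71% against 2.06% and 1.53%. Over the macrophage sum, the groups thus overlapped for both genes, with Tg(hsp70l:sflt4) replicate 1 high. The part of myeloid cell number in the *cfp* and *cfd* values was not tested. The *cfp* gene on chromosome 8 overlaps the row *si:ch73-237c6.1*, also named properdin in the table and on the same strand, by 11889 bases, so how reads were divided between them is uncertain.

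Among the regulators, all the factor H genes stood higher in Tg(hsp70l:sflt4). Factor H binds C3b on host surfaces, speeds the decay of the alternative convertase and serves as cofactor for its cleavage, and its relatives in fish are named for their similarity to it. *cfh* read 871 and 807 in Tg(hsp70l:sflt4), against 368 and 315 in WT. The means were 839.0 ± 45.3 and 341.5 ± 37.5 (SD, n = 2 each), 2.46-fold apart, with a log2 difference of 1.30 (SE 0.16, adjusted p = 0.183). By unadjusted p it ranked 20 among the 17071 genes tested. *cfhl2* read 202 and 137 in Tg(hsp70l:sflt4), against 50 and 66 in WT (log2 difference 1.52, SE 0.33, adjusted p = 0.309). *cfhl1* read 77 and 55 in Tg(hsp70l:sflt4), against 28 and 22 in WT (log2 difference 1.36, SE 0.38, adjusted p = 0.357). For each of these genes the groups did not overlap, and the log2 differences stayed between 1.12 and 1.80 when any 1 library was left out. Those of *cfh* ranged from 1.19 to 1.41 in these fits.

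The factor H genes lie in a row on chromosome 22 (23641801 to 23748284), all on the minus strand, with no other gene of the table starting between them. The summed reads of the family were 1150 and 999 in Tg(hsp70l:sflt4) and 446 and 403 in WT, 2.53-fold apart, and *cfh* made up 75.7% and 80.8% of them in Tg(hsp70l:sflt4) and 82.5% and 78.2% in WT. The proportions within the family thus overlapped between groups while its total did not. Over the macrophage marker sum *cfh* was 0.908% and 0.626% in Tg(hsp70l:sflt4) and 0.526% and 0.394% in WT, and over the epicardial and fibroblast sum 0.401% and 0.377% against 0.144% and 0.220%. On either scale both Tg(hsp70l:sflt4) libraries were above both WT libraries. Both sums are weighted to abundant markers that themselves differed, and the part of cell number in the *cfh* values was not tested.

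The membrane regulator gene *cd59*, whose product blocks pore assembly on host cells, gave 27 and 34 in Tg(hsp70l:sflt4) and 21 and 48 in WT. The Tg(hsp70l:sflt4) values fell between the WT values, the adjusted p was 0.971, and the sign of its log2 difference of -0.07 turned with the scaling. The gene lies wholly within the span of *syt13* on the other strand, with 2946 bases shared.

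**Figure D3:**
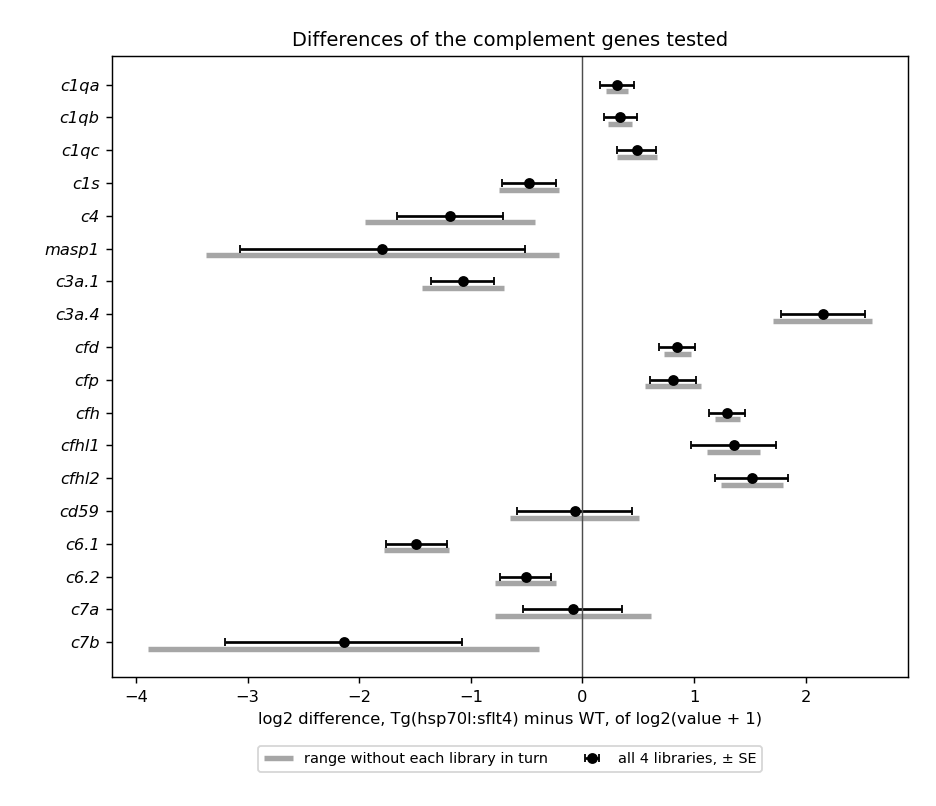
Log2 differences, Tg(hsp70l:sflt4) minus WT, of the 18 complement genes tested. Black points and bars are the values with all 4 libraries ± SE, and grey bars span the values found without each library in turn. The grey bars of *c7a* and *cd59* cross 0, those of *c7b*, *masp1* and *c4* are wide, and those of *cfh* run from 1.19 to 1.41.

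The terminal pathway genes, whose products join C5b to begin the membrane pore, were lower or unseparated. *c6.1* read 226 and 321 in Tg(hsp70l:sflt4), against 928 and 620 in WT. The means were 273.5 ± 67.2 and 774.0 ± 218 (SD, n = 2 each), a log2 difference of -1.49 (SE 0.27, adjusted p = 0.272), and the difference stayed between -1.78 and -1.20 when any 1 library was left out. *c6.2* read 9976 and 11983 in Tg(hsp70l:sflt4), against 18763 and 12879 in WT (log2 difference -0.51, SE 0.23, adjusted p = 0.488). Both genes thus lay lower in each Tg(hsp70l:sflt4) library than in each WT library. *c6.1* made up 2.22% and 2.61% of the reads of the pair in Tg(hsp70l:sflt4), against 4.71% and 4.59% in WT, so its share was also lower. Over the epicardial and fibroblast sum, *c6.1* was 0.104% and 0.150% in Tg(hsp70l:sflt4) and 0.362% and 0.433% in WT. On that scale *c6.2* was 4.60% and 5.60% against 7.32% and 8.99%. The sum is weighted to abundant genes such as *fn1a* and *fn1b*, which differed in opposite directions. The part of epicardial and fibroblast cell number in the *c6* values was not tested.

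The C7 genes depended on single WT libraries. *c7a* read 5229 and 4060 in Tg(hsp70l:sflt4), between the 7942 and 3017 of WT (log2 difference -0.09, SE 0.45, adjusted p = 0.957). Leaving out WT replicate 1 turned its log2 difference to 0.61, and leaving out WT replicate 2 gave -0.79. *c7b* read 242 and 159 in Tg(hsp70l:sflt4), against 257 and 2922 in WT (log2 difference -2.14, SE 1.06, adjusted p = 0.518). WT replicate 1 lay beside the Tg(hsp70l:sflt4) libraries, so the difference was -3.89 without it and -0.39 without WT replicate 2. *c7a* and *c7b* were high in different WT libraries. The end of *c7b* overlaps that of *c6.2*, on the other strand of chromosome 21, by 404 bases.

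Markers of liver, the main source of plasma C3, C4 and C6 in mammals, were sparse in the table. Of 27 symbols 9 had a row, of which 4 had the higher and 5 the lower mean in Tg(hsp70l:sflt4), with a median log2 difference of -0.03 and 1 lower (*rbp4*) at an unadjusted p under 0.05. Their summed values were 2927 and 4068 in Tg(hsp70l:sflt4), against 7118 and 8592 in WT, without overlap. That sum was carried mainly by *tfa* (1246 and 2418 against 1590 and 6559) and *rbp4* (763 and 1040 against 4166 and 1318), which other tissues also transcribe. *hp*, next by mean, read 519 and 235 in Tg(hsp70l:sflt4) and 1071 and 394 in WT (log2 difference -0.89). Among genes with few reads, the fibrinogen gene *fga* read 10 and 18 in Tg(hsp70l:sflt4) and 9 and 5 in WT. *ambp* read 2 and 25 against 12 and 4, and *cp* 7 and 9 against 21 and 8. *serpinc1*, for antithrombin, read 125 and 130 against 113 and 116. The part of liver transcripts in the lower values of *c3a.1*, *c4* and *c6* was not tested.

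The epicardial and fibroblast list of 17 genes had 7 with the higher and 10 with the lower mean in Tg(hsp70l:sflt4), a median log2 difference of -0.11, and 1 gene in each direction at an unadjusted p under 0.05, *fn1a* higher and *fn1b* lower. The mean deviation of its genes from their means over the 4 libraries was 0.03 and -0.10 in Tg(hsp70l:sflt4), between the 0.56 and -0.49 of WT. *c4* and *c7a*, the complement genes with WT replicate 1 far above WT replicate 2, shared that order. So did the heart muscle, red cell, liver and endothelial lists. Their mean deviations in WT were 0.53 and -0.27, 0.47 and -0.26, 0.37 and -0.14, and 0.19 and -0.09, so the order was not particular to the fibroblast list. The opposite order was seen for *c7b*, *masp1*, *c3a.1* and *cd59*, among others. Endothelial markers (14 genes, median -0.07, 0 at an unadjusted p under 0.05), heart muscle markers (12 rows, median -0.30, 1 lower, *myl7*) and red cell markers (9 rows, median -0.16, 0) gave lower medians than all genes tested.

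**Figure D4:**
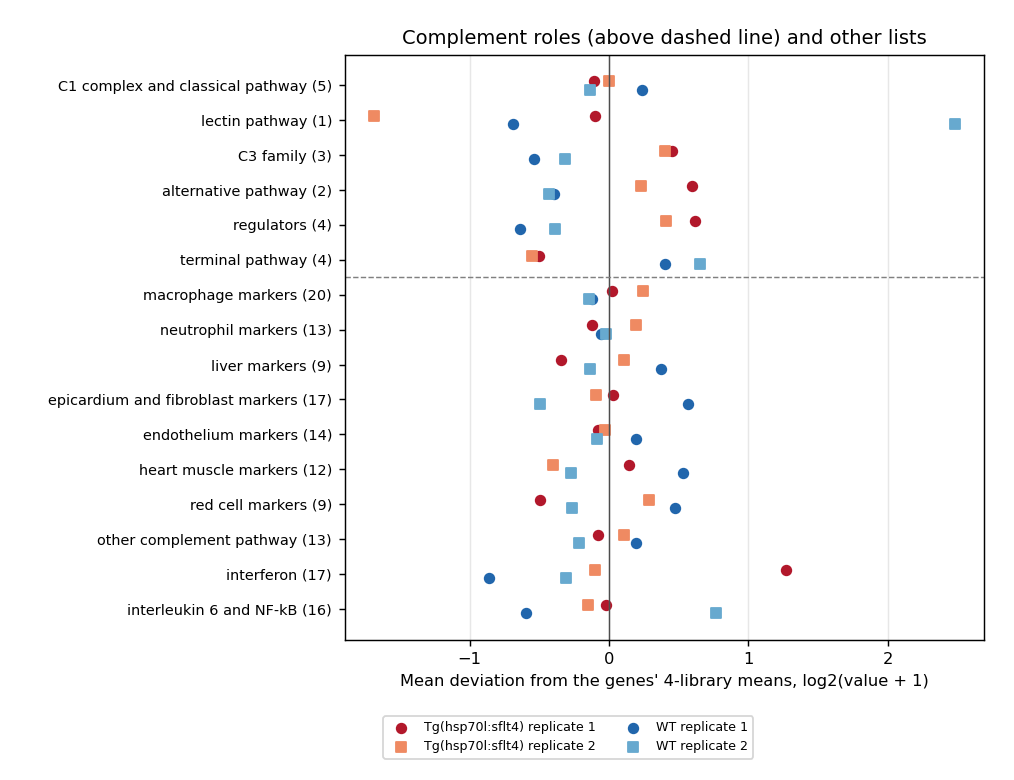
Mean deviation of each library from the genes' means over the 4 libraries, on the log2(value + 1) scale, for the complement roles and for the marker and signal lists, with the number of rows in brackets. The means of regulators, alternative pathway and C3 genes lay to the right of WT in both Tg(hsp70l:sflt4) libraries and terminal genes to the left. The C3 mean weighs its genes equally, an untested gene with few reads among them. Within it, *c3a.4* was higher and *c3a.1* lower in both Tg(hsp70l:sflt4) libraries, and the summed reads of the family were lower. The interferon list was high in Tg(hsp70l:sflt4) replicate 1 alone. WT replicate 1 was the highest library for the fibroblast, heart muscle, red cell, liver and endothelial lists.

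Position gave a further description of the genes. Of the 19 genes, 12 lie in tight clusters: the *c3a* genes, the factor H genes, the C1q genes (chromosome 21, 22712307 to 22724980) and *c6.1*, *c7b* and *c6.2* (chromosome 21, 20795472 to 20932603). The members of the factor H, C1q and *c6* clusters shared a direction within their cluster, and those of the *c3a* cluster did not. No other gene of the table started between the members of any cluster. Within 100 kb of the C1q cluster 14 other genes were tested, 9 with the higher and 5 with the lower mean in Tg(hsp70l:sflt4). Of the higher ones 6 had an unadjusted p under 0.05, a level at which 5.57% of all genes tested were higher. Among these 6 were *gig2d*, *gig2e*, *gig2i* and *gig2j*, which belong to a fish gene family named for its induction by grass carp reovirus. *gig2e* read 433 and 231 in Tg(hsp70l:sflt4), against 139 and 56 in WT (log2 difference 1.83).

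Around the *c6* and *c7b* cluster all 6 other genes tested had the lower mean in Tg(hsp70l:sflt4), 1 of them at an unadjusted p under 0.05, with a median log2 difference of -0.43. Beside the factor H cluster the 1 gene tested, *aspm*, gave 397 and 229 against 316 and 94. Around the *c3a* cluster all 4 other genes tested had the higher mean, with 0 at an unadjusted p under 0.05. These 4 genes flank the *c3a* cluster and none starts between its members. Their log2 differences were between 0.31 and 1.01, with SE of 0.23 to 0.76.

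**Figure D5:**
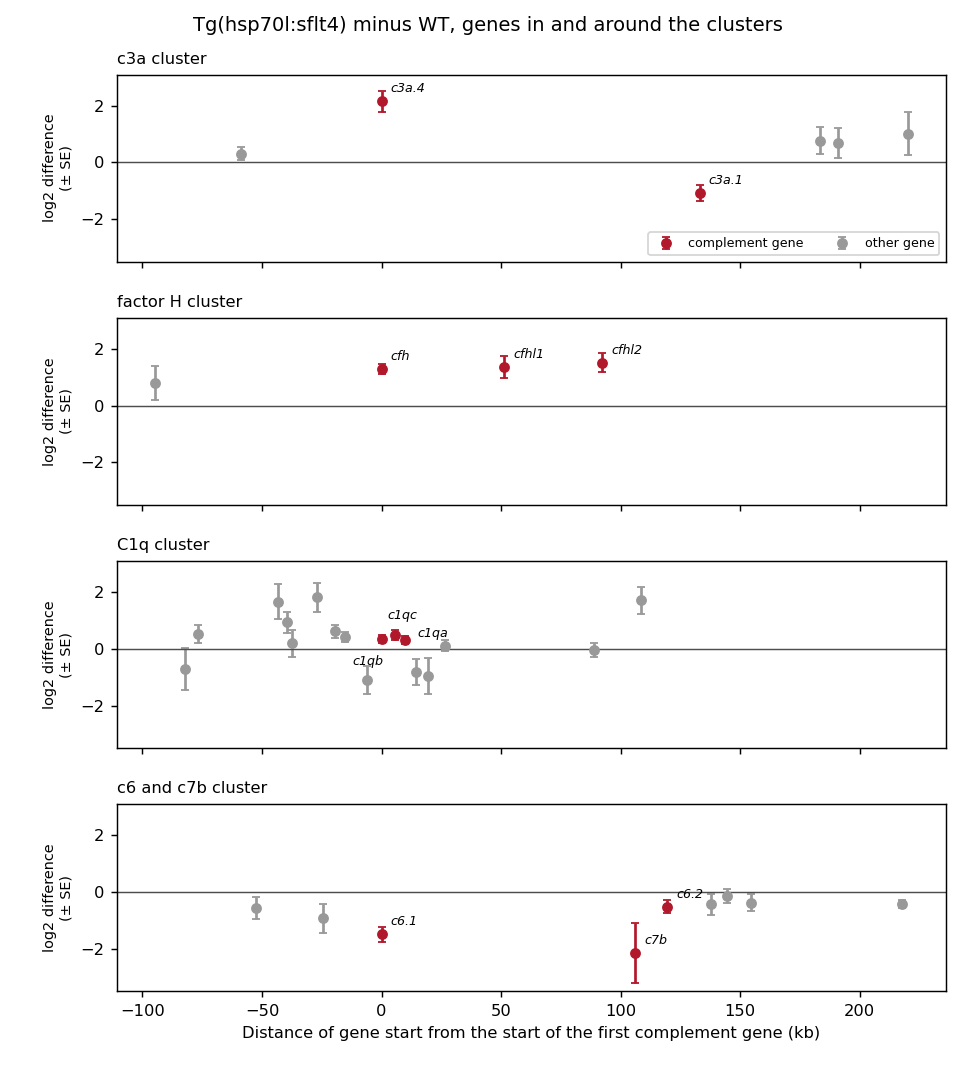
Log2 difference, Tg(hsp70l:sflt4) minus WT, ± SE, of the complement genes (red) and the other genes tested (grey) by distance of their start from the first complement gene of the cluster, in kb. The factor H genes lie together between 1.30 and 1.52, *c3a.4* and *c3a.1* lie on opposite sides of 0, and the genes around *c6.1* and *c6.2* lie below 0.

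The wider complement pathway was followed with a list of 44 further symbols for receptors, lectins, pentraxins and inhibitors, of which 13 had a row. Of these 6 had the higher and 7 the lower mean in Tg(hsp70l:sflt4), with a median log2 difference of -0.21 and 0 adjusted calls. The genes at an unadjusted p under 0.05 were 3, all higher, where 5.57% of all genes tested were higher. These 3 genes were named after their values were seen. *itgam* and *itgb2*, which encode the chains of the leukocyte receptor for cleaved C3, read 354 and 398 against 121 and 214, and 11058 and 12513 against 8022 and 6480. *ptx3a*, for a pentraxin, a soluble pattern recognition protein that can bind C1q and factor H in mammals, read 5689 and 7609 in Tg(hsp70l:sflt4) and 3226 and 2230 in WT (log2 difference 1.29, SE 0.24, adjusted p = 0.272). Of the members of the list with the largest mean, *clu*, for clusterin, an inhibitor of the terminal complex, read 7329 and 7338 in Tg(hsp70l:sflt4) and 22247 and 9109 in WT (log2 difference -0.96, adjusted p = 0.466), again with WT replicate 1 high. *rca2.1*, a regulator of complement activation, read 5534 and 5241 against 6301 and 8010 (log2 difference -0.40, adjusted p = 0.469).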

How the data were processed

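Messenger RNA-seq libraries of 2 Tg(hsp70l:sflt4) and 2 WT pools, each of 3 ventricles, were made from 500 ng of total RNA with a stranded kit (VAHTS, Vazyme), per the labels' protocols. Per the submitters' processing notes, the tools were DESeq2 1.18.1, featureCounts 1.6.3 (Subread), Trimmomatic 0.38 and FastQC, with the danRer11 build; the notes used here do not tie a tool to a step. No source used here names the aligner or the strand setting of the counting. The deposited values are a score, neither raw counts nor a rate: whole numbers that the authors normalized between libraries, with medians of 335 and 328 in Tg(hsp70l:sflt4) and 335 and 332 in WT. The lowest mean in the table was 4.25. Raw counts were not recovered from these rounded values, so no counting intervals are given.

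Differences, Tg(hsp70l:sflt4) minus WT, were tested in R 4.3.3 with limma 3.58.1 (trend, robust) on log2(value + 1), a scale that understates changes of low genes, on all 17071 genes whose mean reached 10, without covariates and with Benjamini-Hochberg adjustment at 0.05. The code was tested on simulated data. Alternatives were pseudocounts of 0.5 and 5, no minimum mean or one of 50, equal totals, upper-quartile scaling, limma-voom, no robust moderation, a replicate block and leaving out each library. Coordinates are those of the table, and 16648 of its identifiers had a symbol in the reference names table. Members and lists were chosen with earlier results of these data known. Family shares, ratios to marker sums and the genes around clusters were chosen after the values were seen. Named genes are all 19 members, list genes with the largest means and list genes at an unadjusted p under 0.05. Some other list genes are also named that meet neither rule, among them *mpeg1.1*, *csf1ra*, *cd74a*, *cd74b*, *fga*, *ambp*, *cp* and *serpinc1*. No sequences were used, and 1 item is not reported here.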

Additional observations from a re-analysis of the deposited data

How the results depend on the processing

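No alternative with all 4 libraries gave an adjusted call among the complement genes or among all genes tested. The count at an unadjusted p under 0.05, 10 as reported, was 8 to 11 under the alternatives with all libraries. The 8 was out of 15 genes, at a mean of at least 50. Over all genes tested the share under these alternatives was 10.8% to 13.4%. The count of complement genes without overlap between groups, 14 as reported, was 13 with equal totals and 14 with upper-quartile scaling. The median log2 difference, 0.12 as reported, was 0.31 without a minimum mean, 0.31 at a mean of at least 50, 0.23 with equal totals and 0.16 to 0.34 without 1 library. Of 231 gene values under the 13 alternatives, 225 kept their direction. The 6 that did not belonged to *c7a* (0.023 with equal totals, -0.79 to 0.61 without 1 library) and *cd59* (0.038 with equal totals, -0.65 to 0.51 without 1 library), and the cause was not tested. The unadjusted p of *c4*, 0.0485 as reported by limma, was over 0.05 with limma-voom (0.0549), without robust moderation (0.0569), at a mean of at least 50 (0.0600), with the replicate block (0.0838), with equal totals (0.0662) and with upper-quartile scaling (0.0637). Leaving out a library leaves a lone sample in its group, which is then assumed to vary like the other group.

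The labels number the replicates alike in both groups but do not say that a number marks a shared day or batch. The deviations of the first replicates of both groups from their group means correlated with r = 0.14 over 17071 genes. With the replicate number as a block, 0 complement genes were called and the median log2 difference was 0.12. An unadjusted p under 0.05 was reached by 11 of 18 complement genes, against 13.4% of all genes tested. Values near the lower limit of the table (*masp1*, *c3a.5*, *cd59*, *cfhl1*) rest on few reads, and their counting error was not computed.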

Other observations

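Lists of interferon response genes and of interleukin 6 and NF-kB genes were described beside the complement genes. Of 17 rows for interferon response genes, 13 had the higher mean in Tg(hsp70l:sflt4), with a median log2 difference of 1.38. At an unadjusted p under 0.05, 6 of these rows were higher, against 5.57% of all genes tested. Their mean deviation was 1.27 and -0.10 in Tg(hsp70l:sflt4) and -0.86 and -0.31 in WT, so the replicates of Tg(hsp70l:sflt4) were far apart. The list of interleukin 6 and NF-kB genes had 6 of 16 with the higher mean log2 value and 10 with the lower, and a median of -0.12. It had 0 higher and 1 lower at an unadjusted p under 0.05. Its mean deviation was -0.02 and -0.15 in Tg(hsp70l:sflt4), between the -0.60 and 0.77 of WT. The 1 lower gene, *cebpd*, an acute-phase transcription factor gene, was named after its values were seen and read 1340 and 992 in Tg(hsp70l:sflt4) and 2464 and 5962 in WT (log2 difference -1.73). *c7b*, *masp1*, *c3a.1* and *cd59* were also highest in WT replicate 2, *masp1* and *cd59* with few reads. A link between these genes and the list was not tested. The row *si:ch73-237c6.1*, which overlaps *cfp* and is also named properdin in the table, read 760 and 516 in Tg(hsp70l:sflt4) and 612 and 428 in WT (log2 difference 0.29, SE 0.27, limma adjusted p = 0.716), so its groups overlapped where those of *cfp* did not.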
